A study of Mus musculus with 6 samples.

Results

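The complement genes described here were the 3 chains of C1q (C1qa, C1qb and C1qc), the central component C3, factor B (Cfb), properdin (Cfp) and the receptors C3ar1 and C5ar1. They were chosen by symbol and are 8 of the 33696 features in the count tables. Single-cell RNA sequencing was run on CD45-positive, DAPI-negative cells, that is, live blood-derived cells, sorted from mouse mammary tumours. The series title names triple negative breast cancer, the drug cyclophosphamide, which damages DNA, and inhibition of MERTK, with which macrophages recognise dying cells. The 5 libraries are labelled MRX, CTX, Combined, ctxd18t and combod18t, 1 library per label, and the labels do not spell these names out. The protocol text, the same for every library, gives a treatment 3 hours before harvest for mice of day 7. The labels ctxd18t and combod18t hold d18, read here as day 18, so day and run cannot be told apart between these 2 libraries and the other 3. Strain, age, tumour line and the number of animals per library are not given in the sources used here. A further library, labelled VC, was not analysed here beyond its 3656 barcodes.

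Complement is a cascade of plasma and tissue proteins that tags surfaces for removal and recruits leukocytes. C1q starts the classical pathway when it binds antibody or altered cell surfaces, and tissue macrophages are a main source of it. C3 is the point where all pathways meet; factor B forms the alternative pathway convertase with C3b, and properdin stabilises that convertase. The fragments C3a and C5a are sensed by the receptors encoded by C3ar1 and C5ar1 on myeloid cells.

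After filtering, 3826 to 8520 cells per library were kept, with a median of 6239 to 8907 transcripts (UMIs) per cell, the fewest in MRX. Clusters were made without any of these genes and without 45 other complement genes. In the monocyte-macrophage-like class, there were 4 clusters; the class held 1378 cells of MRX, 4252 of CTX, 1166 of Combined, 720 of ctxd18t and 221 of combod18t. The Ms4a7/Ccl8 and Cd163/Msx3 clusters scored as macrophage-like, and the Ly6a2/Ly6i and Ace/Plcb1 clusters as monocyte-like, each cluster being called by 2 of its leading genes. The Ly6a2/Ly6i cluster held 61.7% of the class in CTX and 79.1% in Combined, whereas the Ms4a7/Ccl8 cluster was the largest in MRX (53.8%), ctxd18t (40.0%) and combod18t (49.3%). A pair of clusters with markers of more than 1 class and a high depth was left out as mixed; they held 0.754% of kept MRX cells and 4.26% to 6.44% of the cells of the other libraries. CTX and combod18t shared 34 barcodes and Combined and ctxd18t shared 21; leaving those cells out kept the 4 counts of called members given below for the summed class. Levels are summed counts of a cell group scaled to 1000000 counts (CPM). With 1 library per label, no difference has a replicate check and no test was run; all intervals are 95% intervals that cover counting error only.

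Most counts of all 8 genes came from monocyte-macrophage-like cells in MRX, CTX and Combined. In ctxd18t the same held except for Cfp (49.1%), and in combod18t these cells held 25.3% (C5ar1) to 49.8% (C3ar1) of a gene's counts. For C1qa the share was 91.4% (MRX), 77.1% (CTX), 64.9% (Combined), 59.5% (ctxd18t) and 35.6% (combod18t). The mixed clusters held 2.64%, 18.3%, 28.7%, 34.7% and 51.5% of the C1qa counts in the same order, so in combod18t most C1qa counts lay outside the named classes. Neutrophil-like cells held 25.6% of the C5ar1 counts in MRX, 29.3% in ctxd18t and 56.0% in combod18t, but 3.20% in CTX and 10.5% in Combined, where they were 1.07% and 1.82% of the cells, and they held 20.8% of the C3 counts in MRX, 9.79% in ctxd18t and 18.9% in combod18t, but 0.569% in CTX and 1.46% in Combined. Dendritic-like cells held 10.1% (Combined) to 20.8% (MRX) of the Cfp counts. Such a share moves with the number of cells: the class was 49.9% of the cells of CTX and 5.74% of those of combod18t, while its C1qa level was 1314 and 1910 CPM.

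**Figure D1:**
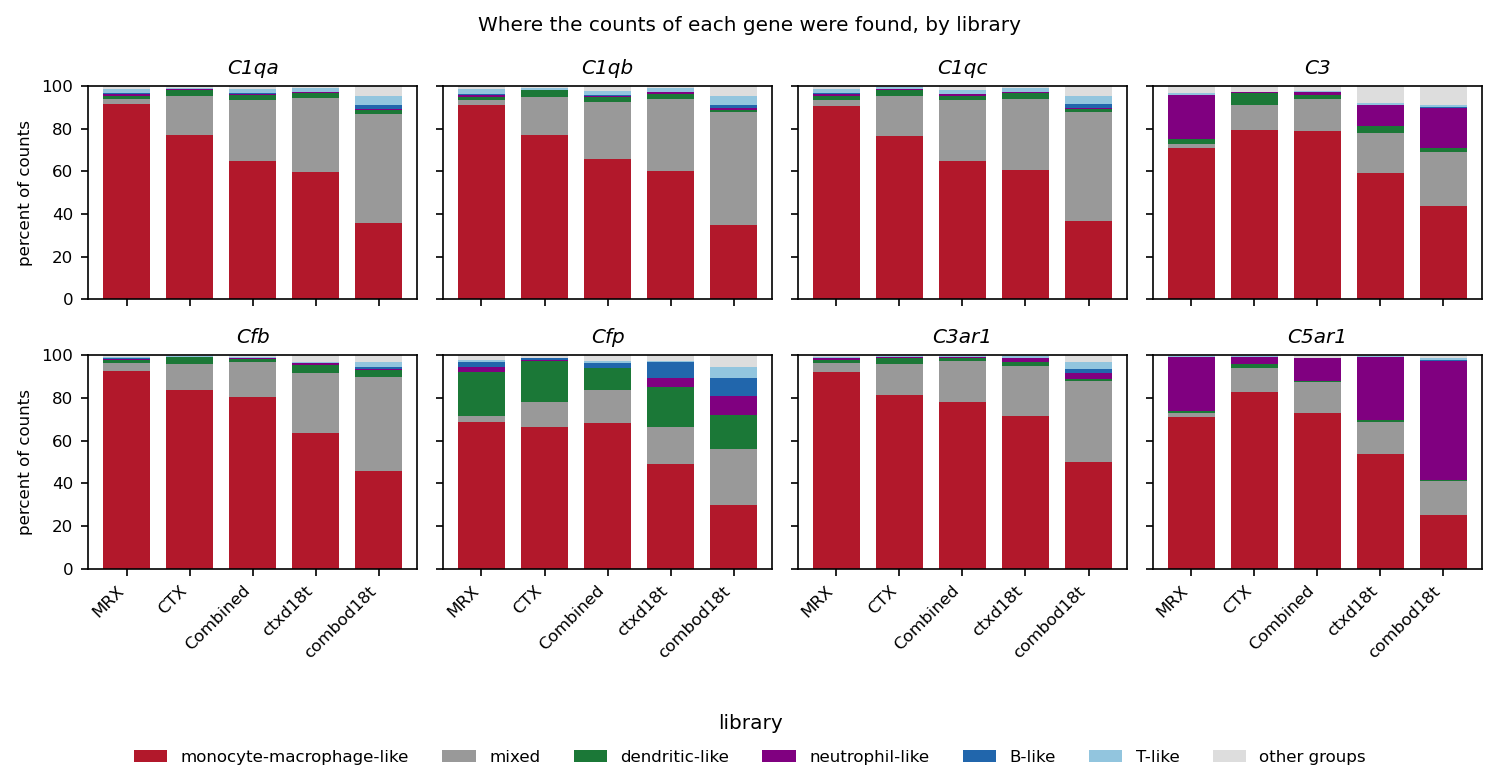
Share of each gene's counts by cell group (y axis, percent of all counts of the gene in kept cells) in the 5 libraries (x axis); colours are cell groups and each bar is 1 library. Monocyte-macrophage-like cells took most C1qa counts in 4 libraries, mixed clusters took 51.5% of C1qa in combod18t, and neutrophil-like cells took 56.0% of C5ar1 there.

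The genes differed in their order of named cell groups. The 3 C1q chains were highest in the Ms4a7/Ccl8 macrophage-like cluster, C3 and Cfb in the Ly6a2/Ly6i monocyte-like cluster, Cfp in dendritic-like cells, C3ar1 in the Cd163/Msx3 macrophage-like cluster and C5ar1 in neutrophil-like cells, by the median over libraries. The ranges over libraries of the highest group and the next one did not overlap for the 3 C1q chains and C5ar1, and did overlap for C3, Cfb, Cfp and C3ar1. T-like, NK-like and B-like cells held at most 6.67 CPM of C3, Cfb, C3ar1 and C5ar1 in every library.

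**Figure D2:**
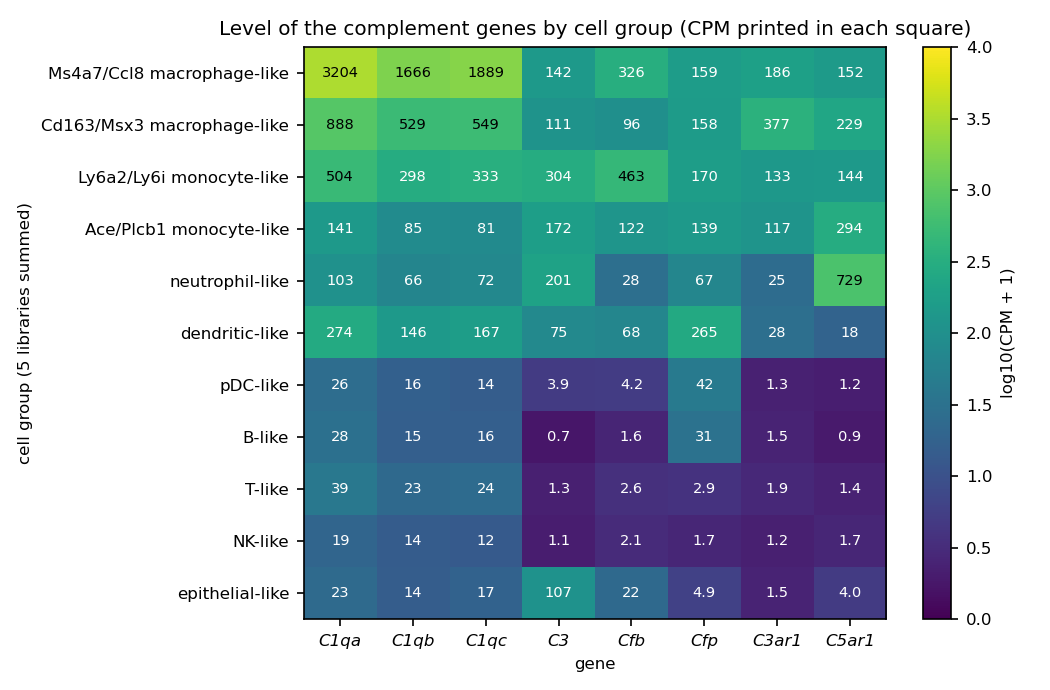
Level of each gene (columns) in 11 cell groups (rows), with the 5 libraries summed; the number in a square is the CPM and the colour is log10(CPM + 1). Among these groups C1q stands out in the Ms4a7/Ccl8 cluster (C1qa 3204 CPM), C5ar1 in neutrophil-like cells (729 CPM) and Cfp in dendritic-like cells (265 CPM).

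The C1q chains A, B and C, which assemble into one recognition protein, are neighbouring genes on mouse chromosome 4. In the Ms4a7/Ccl8 cluster the level of C1qa was 2745 CPM (MRX), 3154 (CTX), 3761 (Combined), 3591 (ctxd18t) and 3984 (combod18t). In the Ly6a2/Ly6i cluster it was 330, 564, 367, 519 and 176 CPM, and in the Ace/Plcb1 cluster 124, 108, 64.1, 163 and 218 CPM, in the same order of libraries. The macrophage-like level therefore stood above both monocyte-like levels in 5 of 5 libraries, with no overlap of the ranges. C1qb showed the same arrangement, at 1508 to 1934 CPM in the Ms4a7/Ccl8 cluster, 108 to 332 in the Ly6a2/Ly6i cluster and 69.1 to 118 in the Ace/Plcb1 cluster. C1qc ran from 1660 to 2326, from 82.7 to 368 and from 64.5 to 98.1 CPM in these 3 clusters.

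In the small Cd163/Msx3 cluster C1q varied widely between libraries. Its C1qa level was 173 CPM in MRX (41 cells), 2422 in CTX (26 cells) and 470 in ctxd18t (72 cells), and the other 2 libraries had under 20 such cells. Over both clusters of each state, C1qa was higher in macrophage-like cells on the log2 scale by 3.87 (MRX), 2.54 (CTX), 3.40 (Combined), 3.31 (ctxd18t) and 4.23 (combod18t). For C1qb these differences ran from 2.37 to 3.93, and for C1qc from 2.40 to 4.67.

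The chains were also found in the same cells. With each cell thinned to 1000 UMIs, all 3 chains were seen together in 46.0% of the cells of the Ms4a7/Ccl8 cluster and no chain in 28.1%. In the Ly6a2/Ly6i cluster the shares were 6.8% and 75.4%, and in the Ace/Plcb1 cluster 1.3% and 90.5%. Before thinning, all 3 chains were seen in 69.0% of the Ms4a7/Ccl8 cells. The number of C1qb counts per C1qa count was 0.52 in the Ms4a7/Ccl8 cluster, 0.59 in the Ly6a2/Ly6i cluster and 0.60 in the Ace/Plcb1 cluster, with the libraries summed. By library this number was 0.455 to 0.549 in the Ms4a7/Ccl8 cluster and 0.585 to 0.620 in the Ly6a2/Ly6i cluster where it was computed, and in the Ace/Plcb1 cluster it was 0.543 to 0.764 apart from 1.5 in Combined, which had 34 C1qa counts. The number of C1qc counts per C1qa count ran from 0.552 to 0.618, from 0.595 to 0.774 and from 0.388 to 1.53 in these 3 clusters.

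C1q was low in lymphoid cells. C1qa stood at 32.8 to 46.6 CPM in T-like cells, and with 1000 UMIs per cell 2.88% of them had a C1qa UMI (95% interval 2.53% to 3.27%, median depth 6260 UMIs, 10.3% unthinned), against 64.6% in the Ms4a7/Ccl8 cluster (62.7% to 66.4%, median depth 9020, 76.5% unthinned). T-like cells are not known as a source of C1q, so their share was read as background. B-like cells had 4.57 to 29.2 CPM in 4 libraries and 105 CPM in combod18t. In combod18t 5 of 253 thinned B-like cells had a C1qa UMI, or 1.98% (0.645% to 4.55%), so the higher sum there came from few cells. The pDC-like cells of combod18t had 111 CPM of C1qa, against 4.08 to 19.0 CPM in the other 4 libraries, and 1 of 58 thinned cells had a UMI.

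A window of 250 bases before the start of C1qb is shown because this chain was called in the comparisons below and RefSeq gives its window. Both also hold for C1qc, whose window is described but not shown. The window of C1qb lies as follows. The C1qb window is chr4:136886201-136886450 on the minus strand of GRCm38.p6 and is written 5′ to 3′ on the gene's strand. Capitals mark the MAF recognition core TGCTGA and the PU.1 core GAGGAA.
C1qb: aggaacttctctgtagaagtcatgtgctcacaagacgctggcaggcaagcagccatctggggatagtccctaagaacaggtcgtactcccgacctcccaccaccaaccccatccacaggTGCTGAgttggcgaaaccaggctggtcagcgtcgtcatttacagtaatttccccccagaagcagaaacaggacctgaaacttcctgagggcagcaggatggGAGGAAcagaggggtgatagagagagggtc
Either strand of a 250-base window held the first core in 16.1% and the second in 23.3% of the 32851 windows in the same table. The window of C1qc held 1 of the 7 motifs searched, the PU.1 core. A match is a description of the letters and not a bound site.

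C3 was higher in the Ly6a2/Ly6i monocyte-like cluster than in the Ms4a7/Ccl8 macrophage-like cluster in 5 of 5 libraries, the opposite of C1q. Cfb was higher there too, but in Combined the difference was within counting error (566 to 594 against 536 to 608 CPM). The combod18t levels of the Ly6a2/Ly6i cluster rest on 24 cells. The level of C3 in the Ly6a2/Ly6i cluster was 182 CPM (MRX), 283 (CTX), 376 (Combined), 265 (ctxd18t) and 455 (combod18t), and in the Ms4a7/Ccl8 cluster it was 62.3, 177, 243, 108 and 123 CPM. In the Ace/Plcb1 monocyte-like cluster C3 was 98.8, 162, 226, 197 and 319 CPM, under the Ms4a7/Ccl8 level in CTX and Combined and above it in the other 3 libraries. Macrophage-like clusters summed had less C3 than monocyte-like ones by 0.62 (Combined) to 1.52 (combod18t) on the log2 scale. The sign held in 10 of 10 alternative settings, but the difference fell under 1.5-fold in 4 of them in Combined and in 1 in CTX. Cfb was at 338, 433, 580, 333 and 505 CPM, again in that order, in the Ly6a2/Ly6i cluster. In the Ms4a7/Ccl8 cluster it was 185, 391, 571, 229 and 255 CPM, and in the Ace/Plcb1 cluster 111, 184, 219, 98.4 and 82.2 CPM. The ranges of the first 2 clusters over libraries overlapped. The 2 monocyte-like clusters lay on either side of the macrophage-like one, so the Cfb log2 ratio of the summed states, from -0.12 in CTX to 0.51 in combod18t, joins differences of both signs.

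Finer clustering of the class gave 9 clusters, compared here within libraries. In CTX and Combined, C3 was highest in the Cxcl9/Ly6i cluster, which is also led by Nos2, the inducible nitric oxide synthase, at 442 and 441 CPM, and lowest in the Tmem119/Cxcl13 cluster, at 168 and 246 CPM. Cfb was highest in the same Cxcl9/Ly6i cluster, at 721 CPM in CTX and 889 CPM in Combined, followed by the Tmem119/Cxcl13 cluster at 443 and 666 CPM. The Cxcl9/Ly6i cluster had 524 cells in CTX, 224 in Combined and 6 or fewer in the other 3 libraries. In MRX both genes were highest in the Lyz1/Ly6i cluster (C3 239.5 CPM, Cfb 349 CPM), and in ctxd18t C3 was highest in the Vcan/Plcb1 cluster (221 CPM) and Cfb in the Tmem119/Cxcl13 cluster (267 CPM). With the libraries summed, C1qa was 455 CPM in the Cxcl9/Ly6i cluster, against 4039 CPM in the Hbb-bs/Ccl8 cluster, which is also led by the folate receptor gene Folr2, and 3457 CPM in the Tmem119/Cxcl13 cluster. C3 and Cfb were seen together in 12.2% of thinned class cells of Combined, 7.5% in CTX, 2.0% in MRX and 2.7% in each day 18 library.

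**Figure D3:**
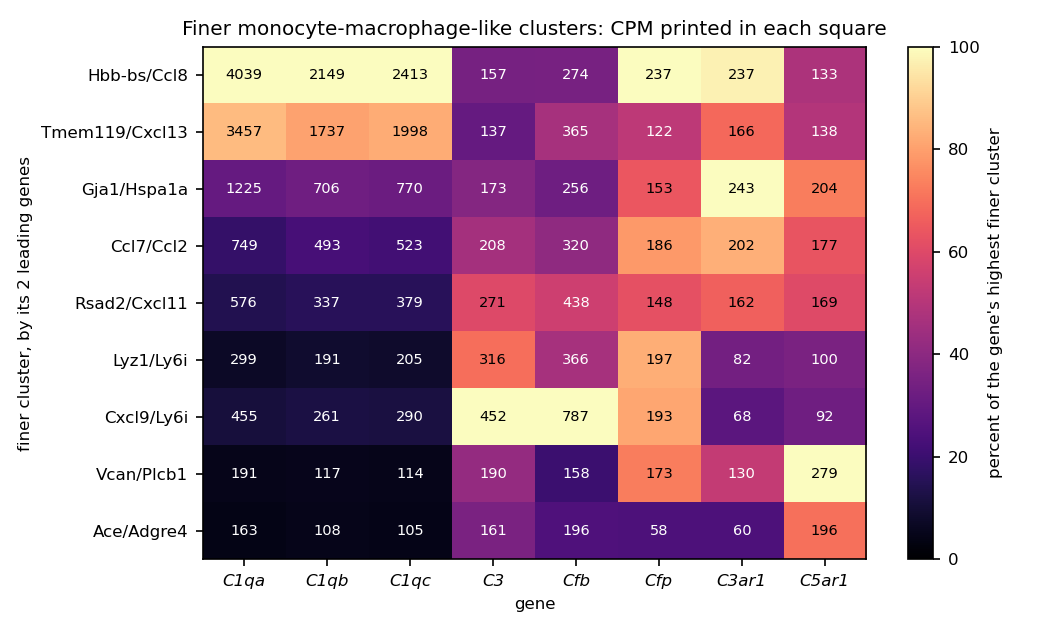
Level of each gene (columns) in 9 finer monocyte-macrophage-like clusters (rows), with the 5 libraries summed; the number in a square is the CPM and the colour is the percent of the gene's highest cluster. In these sums, which mix libraries of different levels, C1q is highest in the Hbb-bs/Ccl8 and Tmem119/Cxcl13 clusters and C3 and Cfb in the Cxcl9/Ly6i cluster.

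Outside the class, C3 and Cfb parted. Neutrophil-like cells had 170 to 285 CPM of C3 in the 5 libraries. Their Cfb level was 7.19 CPM in MRX, 10.1 in ctxd18t and 3.66 in combod18t, but 140 in CTX and 190 in Combined, where there were 91 and 78 such cells. C1qa, which marks macrophages, was also higher in the neutrophil-like cells of CTX (286 CPM) and Combined (239 CPM) than in those of MRX (128 CPM), ctxd18t (74.8 CPM) and combod18t (39.0 CPM), and the part of transcripts from other cells in these values was not tested. Epithelial-like cells had 156 CPM of C3 in CTX, 40.9 in ctxd18t and 136 in combod18t.

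The C3 window, shown because C3 had the highest ratios against MRX given below for the class, lies at chr17:57228137-57228386 on the minus strand of GRCm38.p6. Capitals mark the reverse complement TCAGCA of the MAF core and the C/EBP motif TTGCGNAA, which begins 45 bases before the start.
C3: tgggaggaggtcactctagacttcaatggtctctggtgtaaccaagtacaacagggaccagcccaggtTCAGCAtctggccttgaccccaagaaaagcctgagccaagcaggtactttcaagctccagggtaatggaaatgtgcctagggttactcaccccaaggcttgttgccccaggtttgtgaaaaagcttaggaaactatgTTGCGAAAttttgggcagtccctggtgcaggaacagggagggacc
The C/EBP motif was present in 0.67% of all windows.

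Properdin (Cfp) was spread over myeloid cells. Dendritic-like cells had 284 CPM (MRX), 350 (CTX), 323 (Combined), 145 (ctxd18t) and 114 (combod18t). The whole monocyte-macrophage-like class had 164, 157, 222, 119 and 126 CPM in the same order, so the dendritic-like level was the higher in 4 of 5 libraries. The 4 clusters of the class had overlapping ranges, from 85.5 CPM (Ly6a2/Ly6i in combod18t) to 229 CPM (Ly6a2/Ly6i in Combined). The 8 subclusters of the dendritic-like cells ran from 47.9 to 406 CPM. One of 92 cells, at 142 CPM, was led by lymphoid genes such as Jchain, Igkc and Trac. Its median depth was 24872.5 UMIs, against 14064 in the whole dendritic-like cluster. It was 35 of 161 dendritic-like cells in ctxd18t and 31 of 78 in combod18t, against 9 of 185 in MRX, 13 of 444 in CTX and 4 of 95 in Combined. This subcluster was kept in all dendritic-like levels, and its part in the lower day 18 levels was not tested. Those led by Xcr1 and Clec9a, markers of type 1 conventional dendritic cells, had 47.9 CPM, and those led by Il12b and Fscn1, markers of migratory dendritic cells, had 80.5 CPM. The highest levels were 406 CPM in a subcluster of 40 cells led by Slit2 that also had the pDC genes Siglech, Klk1 and Ccr9 among its first 10, 402 CPM in one led by Retnla and 352 CPM in those led by Ifitm1 and by Lyz1. The Retnla subcluster and one led by G0s2 and S100a9 (179 CPM) scored higher on the monocyte-macrophage markers than on any dendritic list; without them the dendritic-like level of Cfp was 277 CPM in MRX, 344 in CTX, 313 in Combined and 128 (114 to 142) in ctxd18t, against 119 in the class there, and 110 in combod18t, under the class. B-like cells held a low level that varied little, 26.3 to 38.4 CPM, against 1.11 to 3.95 CPM in T-like cells.

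The receptors had different peaks. C3ar1, the C3a receptor gene, was at 291 CPM in MRX, 258 in CTX and 431 in ctxd18t in the Cd163/Msx3 cluster. It was at 159, 177, 125, 271 and 226 CPM in the Ms4a7/Ccl8 cluster of MRX, CTX, Combined, ctxd18t and combod18t, and at 126, 82.4, 69.8, 153 and 65.0 CPM in the Ace/Plcb1 cluster. The Cd163/Msx3 level was the highest of the 4 clusters in each of the 3 libraries that had it. C5ar1, the C5a receptor gene, was at 896 CPM (MRX), 672 (CTX), 852 (Combined), 697 (ctxd18t) and 609 (combod18t) in neutrophil-like cells. In the Ace/Plcb1 cluster it was at 444, 179, 213, 252 and 159 CPM, and in the Ms4a7/Ccl8 cluster at 195, 139, 110, 156 and 132 CPM. Neutrophil-like cells stood above every other group in every library. With 1000 UMIs per cell, 50.2% of neutrophil-like cells had a C5ar1 UMI (82.7% unthinned), against 0.193% of T-like cells (0.862% unthinned). Among the finer clusters the one with the most C3ar1 differed between libraries: Rsad2/Cxcl11 in MRX (226 CPM), Hbb-bs/Ccl8 in CTX (216 CPM) and combod18t (222 CPM), Ccl7/Ccl2 in Combined (194 CPM) and Gja1/Hspa1a in ctxd18t (353 CPM). C5ar1 was highest in the Vcan/Plcb1 cluster in MRX (417 CPM), CTX (201 CPM) and combod18t (155 CPM), in the Ace/Adgre4 cluster in Combined (188 CPM) and in the Rsad2/Cxcl11 cluster in ctxd18t (237 CPM).

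The receptor windows are shown to compare genes of one ligand family that peaked in different cells. The window of C3ar1 is chr6:122856158-122856407 and that of C5ar1 is chr7:16259339-16259588, both on the minus strand of GRCm38.p6. Capitals mark the MAF core in either orientation and, in C3ar1, the AP-1 motif TGANTCA, which 6.75% of all windows held.
C3ar1: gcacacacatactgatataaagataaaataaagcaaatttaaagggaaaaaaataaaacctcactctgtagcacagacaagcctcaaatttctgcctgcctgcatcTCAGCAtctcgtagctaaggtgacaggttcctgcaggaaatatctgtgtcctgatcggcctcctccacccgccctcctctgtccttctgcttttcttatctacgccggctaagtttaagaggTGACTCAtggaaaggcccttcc
C5ar1: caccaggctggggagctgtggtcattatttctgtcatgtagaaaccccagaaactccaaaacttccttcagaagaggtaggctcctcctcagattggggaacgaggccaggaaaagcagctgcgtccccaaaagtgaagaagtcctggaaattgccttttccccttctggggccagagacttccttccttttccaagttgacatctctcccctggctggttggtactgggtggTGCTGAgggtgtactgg
The window of Cfp held none of the 7 motifs, and no window was used for C1qa and Cfb.

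**Figure D4:**
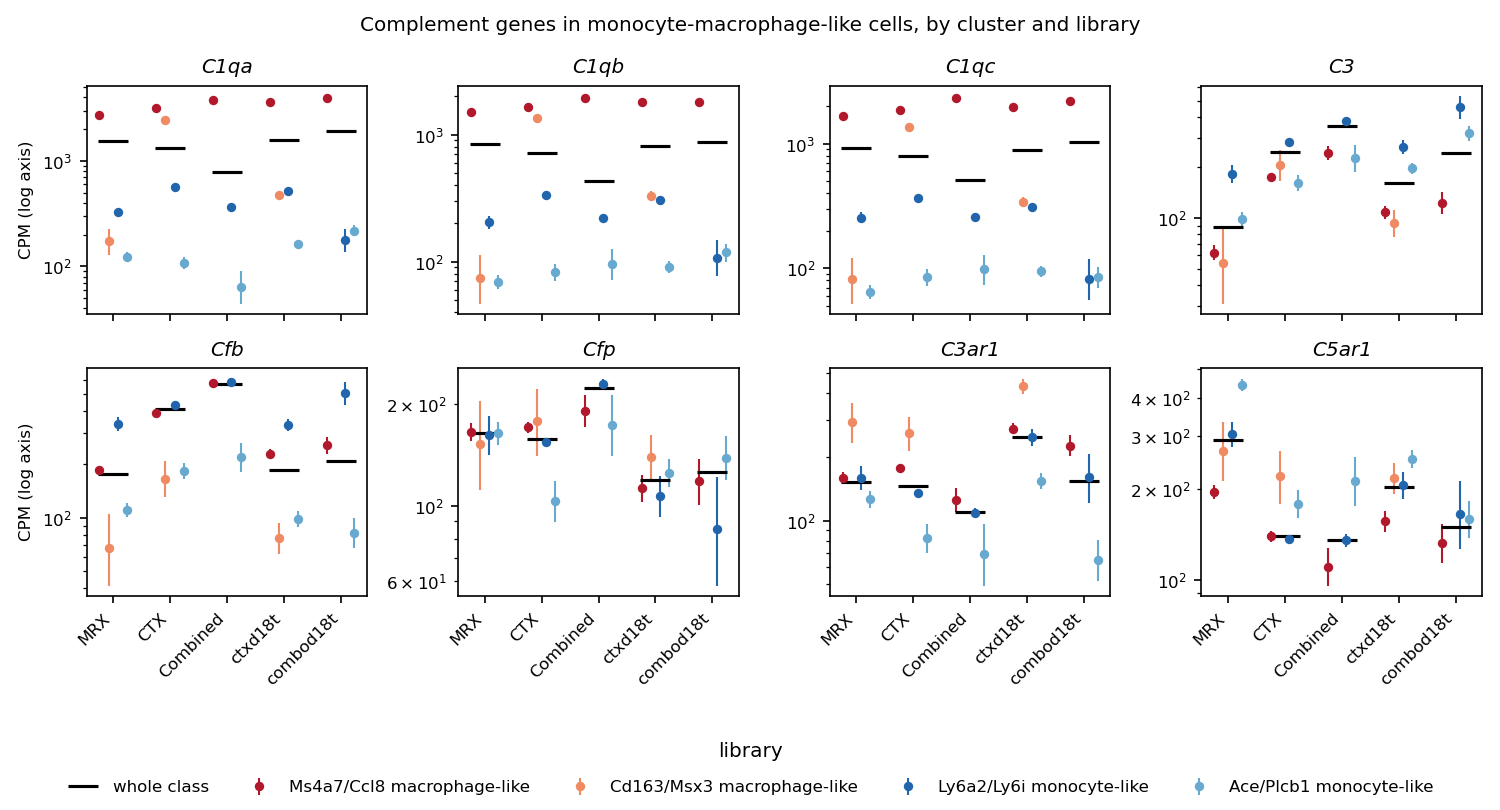
Level of each gene (y axis, CPM on a log axis) in the 5 libraries (x axis) for the 4 monocyte-macrophage-like clusters (colours), with 95% Poisson intervals; black bars are the whole class. The class level of C1qa is lowest in Combined (777 CPM) although the Ms4a7/Ccl8 cluster there has 3761 CPM, and C3 and Cfb are lowest in MRX for the whole class.

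The first comparison sets Combined against CTX. Over the whole monocyte-macrophage-like class, C1qa was 777 CPM in Combined (762 to 792) and 1314 in CTX (1304 to 1324). C1qb was 428 and 713 CPM, and C1qc 509 and 804 CPM. The log2 ratios of CPM + 1 were -0.76, -0.73 and -0.66. These 3 of the 8 members were lower by at least 1.5-fold, the size used here to call a difference, and none was higher; over all 3545 genes that passed the same filter (at least 100 counts over both libraries and 50 CPM in 1 of them, passed by all 8 members), 2.54% were lower and 1.13% were higher. C3 (0.52), Cfb (0.47) and Cfp (0.50) had log2 ratios just inside the 1.5-fold limit, C3ar1 had -0.41 and C5ar1 -0.04. Different clusters weighed in the 2 libraries: the Ms4a7/Ccl8 cluster was 15.5% of the class in Combined and 32.0% in CTX. With the same mix of clusters in both libraries the C1q log2 ratios were -0.03, -0.06 and 0.02 and no member was called. Within the Ms4a7/Ccl8 cluster C1qa was 0.25 higher in Combined and no member was called, the background being 1.4% higher and 2.16% lower. Also within the Ly6a2/Ly6i cluster C1qa and C1qb were lower by 0.62 and 0.59 on the log2 scale, 2 members lower against 2.04% of genes and none higher against 0.765%. Within the Ace/Plcb1 cluster, with 62 cells in Combined, Cfp was higher (0.74) and C1qa lower (-0.74), 1 member each way against 4.62% and 4.54% of genes. The call of C1qc in the class was lost in 4 of 14 alternatives: with the same mix, with the mixed clusters kept (-0.56), with each library clustered separately (-0.51) and with CPM averaged over cells.

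At day 18, combod18t was set against ctxd18t. C3ar1 was 154 CPM (140 to 169) in combod18t and 248 (239 to 258) in ctxd18t, a log2 ratio of -0.68, and it was the 1 member called, lower, while 2 members were called in 7 of 14 alternatives and 3 in 1; 2.88% of 3952 genes were lower and 2.38% higher. C3 had a log2 ratio of 0.58, just under the limit, with 244 and 163 CPM, and -0.09 with each library clustered separately. The C1q chains had log2 ratios of 0.28, 0.11 and 0.23, above 0 in place of the values below 0 in the other pair; with the same mix C1qb was at -0.03. With the same mix of clusters C3ar1 was at -0.54 and was not called, and C3, at 0.59, was. In the Ly6a2/Ly6i cluster the C1q chains were lower by 1.55, 1.49 and 1.89 on the log2 scale, but that cluster had 24 cells in combod18t; 4 members were lower there against 9.53% of genes and 2 were higher against 7.95%. In the Ms4a7/Ccl8 cluster no member was called, the background being 3.61% lower and 3.98% higher. In the Ace/Plcb1 cluster C3 was higher (0.69) and C3ar1 (-1.23) and C5ar1 (-0.66) were lower, 1 member against 4.14% of genes and 2 against 3.5%.

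CTX and Combined were each set against MRX, which both comparisons share. C3 was 88.4 CPM in MRX (83.1 to 93.9), 247 in CTX (242 to 251) and 354 in Combined (344 to 364). Its log2 ratio was 1.47 (1.39 to 1.57) in CTX and 1.99 (1.91 to 2.10) in Combined. Cfb was 176 CPM in MRX, 409 in CTX and 565 in Combined, with log2 ratios of 1.21 and 1.68. C5ar1 went the other way, with 292 CPM in MRX, 139 in CTX and 135 in Combined and log2 ratios of -1.06 and -1.10. The intervals of CTX and Combined did not reach that of MRX for any of these 3 genes. In CTX against MRX 2 members were higher, against 5.37% of 3540 genes, and 1 was lower, against 4.49%. In Combined against MRX 2 members were higher, against 10.1% of 3657 genes, and 4 were lower, C5ar1 and the 3 C1q chains, against 8.07%.

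C3 and Cfb were also higher within clusters. In the Ms4a7/Ccl8 cluster the C3 log2 ratio was 1.49 in CTX and 1.95 in Combined, and that of Cfb was 1.08 and 1.62; 2 members were higher in each comparison, against 4.68% and 7.21% of genes, and 0 and 1 were lower, against 2.95% and 5.3%. In the Ly6a2/Ly6i cluster the C3 ratio was 0.63 in CTX and 1.04 in Combined, and that of Cfb 0.36 and 0.78. In CTX 3 members were higher there, C3, C1qa (0.77) and C1qb (0.69), against 4.2% of genes, and C5ar1 was lower, against 5.47%. In Combined 2 were higher, C3 and Cfb, against 8.09%, and C5ar1 was lower, against 8.34%. In the Ace/Plcb1 cluster of CTX, C3 (0.71) and Cfb (0.73) were higher, against 7.98%, and Cfp (-0.66), C3ar1 (-0.61) and C5ar1 were lower, against 4.91%. In that of Combined, C3 (1.19), Cfb (0.97) and C1qc (0.60) were higher, against 12.0%, and C1qa (-0.94), C3ar1 (-0.84) and C5ar1 were lower, against 8.24%. With the same mix of clusters the C3 ratios were 0.90 and 1.25 and the Cfb ratios 0.67 and 1.06. C5ar1 was lower within the Ly6a2/Ly6i cluster by 1.16 in CTX and 1.17 in Combined and within the Ace/Plcb1 cluster by 1.31 and 1.06, and in the Ms4a7/Ccl8 cluster the values were -0.49 and -0.82. The C1q ratios of Combined against MRX changed sign with the mix: they were -0.98, -0.98 and -0.87 for the summed class and 0.39, 0.32 and 0.41 with the same mix; those of CTX against MRX went from -0.23, -0.25 and -0.21 to 0.30, 0.25 and 0.26. In dendritic-like cells C3 was 14.5 CPM in MRX, 129 in CTX and 94.5 in Combined, and Cfb was 16.9, 108 and 79.3 CPM. C1qa was also higher there, at 134, 385 and 268 CPM. The 2 subclusters that scored as monocyte-macrophage held 19 of 185 such cells in MRX, 214 of 444 in CTX and 23 of 95 in Combined. Without them C1qa was 107, 66.4 and 107 CPM, C3 11.7, 49.98 and 55.6 CPM and Cfb 11.7, 50.3 and 36.4 CPM, so the C3 and Cfb differences from MRX were smaller, at levels near or under the filter of 50 CPM, and C1qa was not higher. At day 18 the chains were lower in the dendritic-like cells of combod18t than of ctxd18t, with C1qa at 144 and 217 CPM, C1qb at 58.7 and 115 CPM and C1qc at 72.0 and 123 CPM. Without the same 2 subclusters, which were 8 of 78 and 26 of 161 cells, C1qa was 92.6 (78.5 to 109) and 101 (89.2 to 113) CPM and C1qc 45.7 and 45.8 CPM, so these 2 differences were within counting error, and C1qb was 30.5 and 53.1 CPM.

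**Figure D5:**
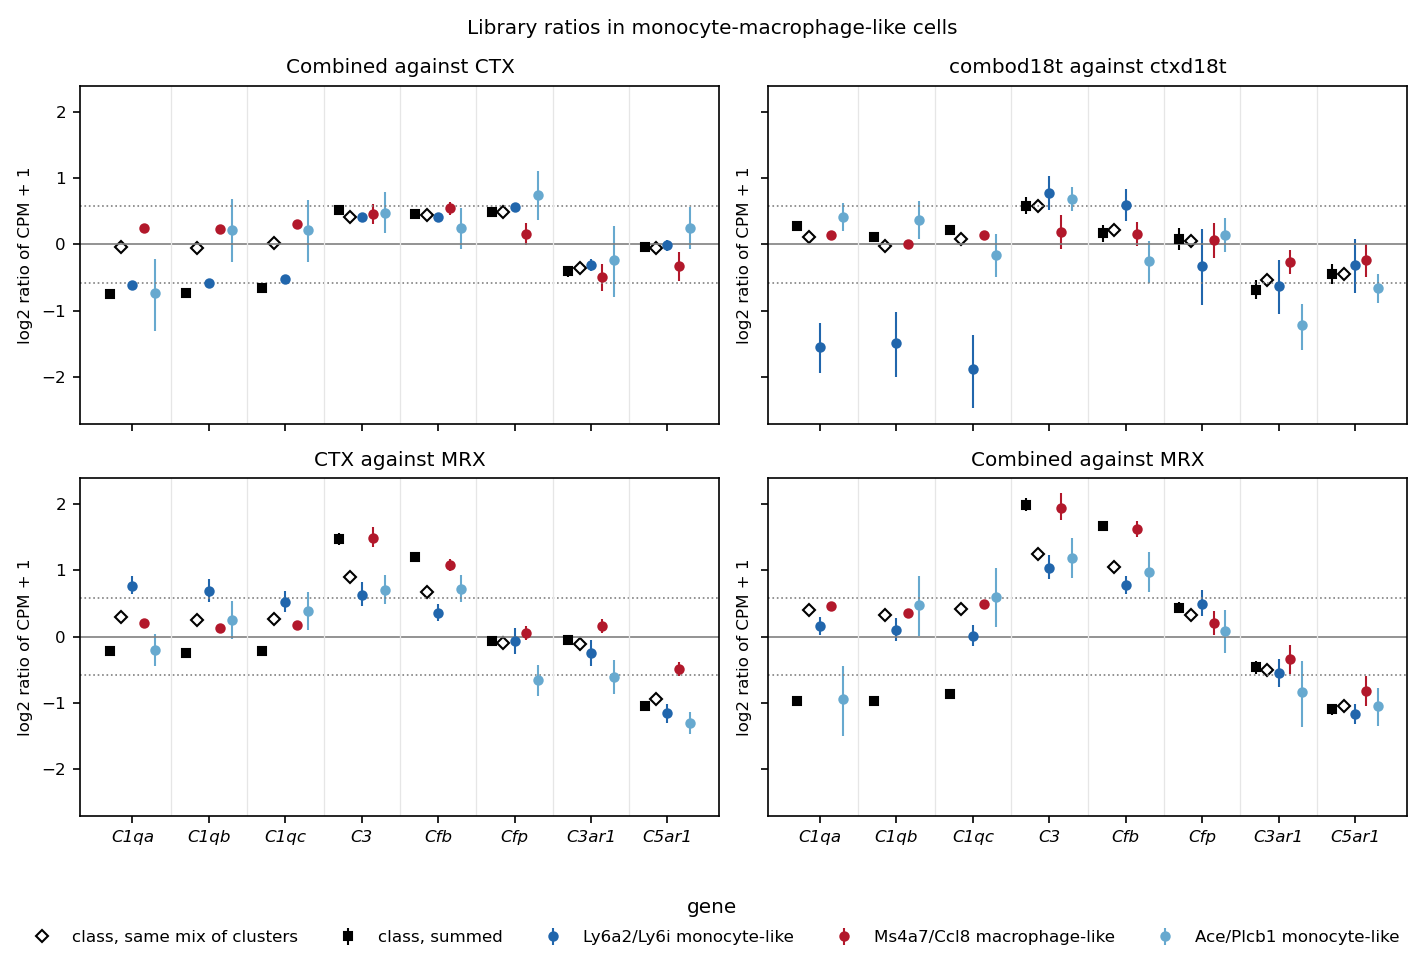
Log2 ratio of CPM + 1 (y axis) of each gene (x axis) in 4 comparisons of libraries; black squares are the summed class, open diamonds the class with the same mix of clusters, and coloured points single clusters, with 95% counting intervals of the ratio. Dotted lines mark 1.5-fold. C1q of the class lies near 0 once the mix is equal in Combined against CTX. In that comparison C1qa is higher in the Ms4a7/Ccl8 cluster and lower in the Ly6a2/Ly6i cluster. C3 and Cfb of the class are above 1.5-fold against MRX with either mix, while Cfb in the Ly6a2/Ly6i cluster of CTX is at 0.36.

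The other genes of the pathway were taken from a list of 45. Of these, 9 passed the filter in Combined against CTX, and 10 in each of the other comparisons. Lower by at least 1.5-fold were 2 of 9 in Combined against CTX and 0 of 10 in combod18t against ctxd18t. Against MRX, 3 of 10 were lower in CTX and 5 of 10 in Combined. Of the list genes that passed, none was higher in any comparison. Over all genes 2.54%, 2.88%, 4.49% and 8.07% were lower and 1.13%, 2.38%, 5.37% and 10.1% higher in these comparisons. The median log2 ratio of the list genes that passed was -0.04, -0.16, -0.28 and -0.40, against 0.07, 0.04, 0.00 and 0.07 over all genes that passed. List genes under the filter were not counted and went both ways. In the class, C1ra was 2.02 CPM in MRX, 9.29 in CTX and 13.6 in Combined, and C6 was 3.12, 5.30 and 1.34 CPM. Cd93, a surface protein first described as a C1q receptor, was 93.8 CPM in MRX, 38.0 in CTX and 31.8 in Combined. Lrp1, an endocytic receptor, was 420 CPM in MRX, 294 in CTX and 195 in Combined. Itgax, a chain of complement receptor 4, was 85.3 CPM in CTX and 47.9 in Combined. Outside the class, Cr2, complement receptor 2 of B cells, reached 205 to 408 CPM in B-like cells. It was at most 3.9 CPM in dendritic-like cells and 20.1 CPM in pDC-like cells, the highest of the other named classes. In all, 14 of the 45 genes reached 50 CPM in a named class of at least 50 cells. The classical pathway partner C4b was at 13.3 to 25.2 CPM in the monocyte-macrophage-like class, and Hc, which encodes C5, had 1 count there.

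The genes outside the list with the most similar levels were found by Pearson correlation of log2(CPM + 1) over 37 sums of a class in a library, among 7255 genes. These sums share libraries and classes, so the values are descriptions only. Among the 3 nearest genes of each C1q chain were Gatm (r = 0.94) and Adgre1 (0.94) for C1qa, Ccl2 (0.94) and Gatm (0.94) for C1qb, and Adgre1 (0.94) and Gatm (0.93) for C1qc. C3 was nearest to Dmkn (0.97), Oas1g (0.97) and Cxcl11 (0.96), and Cfb to Slc7a8 (0.93), Aif1 (0.92) and Slamf8 (0.92). Cfp was nearest to Plbd1 (0.96), BC028528 (0.94) and 5031439G07Rik (0.93). C3ar1 was nearest to Clec4a1 (0.96), Msr1 (0.96) and Fcgr1 (0.95), and C5ar1 to Trem3 (0.98), Fpr2 (0.97) and Treml4 (0.97). Among the members, C1qb and C1qc were the most alike (r = 0.99), and Cfp and C5ar1 the least (0.59).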

How the data were processed

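Each deposited matrix gives whole-number UMI counts by gene and barcode, not normalised, per the file headers. Per the labels' protocols, Cell Ranger 9.0.1 was the authors' counting tool; the submitters' processing notes also name Seurat 5.2.0 and the build GRCm39. Promoter windows came from RefSeq on GRCm38.p6, so no file coordinates are given. The members and lists were chosen with earlier results of these data known. The text names all 8 members and the 3 most similar genes per member. It also names list genes of at least 50 CPM in some class of at least 50 cells. The genes C4b, Hc, Serping1, C1s1, C1ra and C6 were named after their values were seen. Some genes that the rule names are not reported here.

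Cells with at least 200 genes and at most 15% mitochondrial counts were kept. Scrublet (scanpy 1.11.5) marked at most 0.109% of cells by its own threshold, so the highest 5% of scores per library were removed, ties kept. The 2000 most variable genes without complement genes, 30 components, 15 neighbours and Leiden clustering (leidenalg 0.10.2) at resolution 1 gave 23 clusters, named from marker lists. Set after seeing the data were the rule for mixed clusters (second class score of at least 0.45 times the best and a depth ratio of at least 1.5), the joining of the dendritic lists, the score ratio of 1.5 between states, the dendritic subclusters (resolution 0.5), the minimum of 10 cells for the same mix and the motifs, searched on both strands. Finer clusters used resolution 2. Levels have exact Poisson intervals, shares Clopper-Pearson intervals and ratios exact conditional binomial intervals without the pseudocount of 1 CPM, which lowers the ratios of low genes. The class sums held 3023780 UMIs in combod18t to 49632127 in CTX. The ratio step was tested on simulated counts.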

Additional observations from a re-analysis of the deposited data

Results flagged for a closer look

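Summed over the monocyte-macrophage-like class, the C1q chains had opposite directions in the 2 pairs of libraries. The log2 ratio of Combined against CTX was below 0 and that of combod18t against ctxd18t above 0 for all 3 chains; the first minus the second was -1.03 for C1qa, -0.847 for C1qb and -0.885 for C1qc. With the same mix of clusters C1qb was at -0.03 in combod18t against ctxd18t and C1qc at 0.02 in Combined against CTX. Within the Ms4a7/Ccl8 cluster C1qa and C1qc were higher in Combined than in CTX and in combod18t than in ctxd18t. Within the Ly6a2/Ly6i cluster, with 24 cells in combod18t, both were lower in each pair. In the Ace/Plcb1 cluster their directions differed between the pairs. With 1 library per label the difference between the pairs was not tested, and day and run cannot be told apart between them.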

How the results depend on the processing

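No paired analysis was possible because each label has 1 library and no number is shared, and no replicate could be left out. Of 56 alternative counts of called members, 46 stayed within 1.5 times the count given. Of the levels 381 were sorted as the same and 179 as moved, and of the log2 ratios between libraries 326 and 118. Of the ratios between macrophage-like and monocyte-like clusters 217 were the same and 183 moved. For C1qa this log2 ratio ran from 2.47 to 3.79 in CTX and from 3.30 to 6.53 in combod18t over 10 alternatives. Ratios between libraries that changed sign are given next. With the same mix of clusters the count was 0 in Combined against CTX and 3 in Combined against MRX. The log2 ratio then changed sign for C1qc in Combined against CTX (0.0213) and, in Combined against MRX, for C1qa (0.39), C1qb (0.32) and C1qc (0.41). The clusters differed in C1q and in their shares, and what part of the changes came from either was not tested. Among values under 1.5-fold, the same mix turned the chains in CTX against MRX (0.30, 0.25 and 0.26) and C1qb in combod18t against ctxd18t (-0.03), and separate clustering turned C3 there (-0.09). In combod18t against ctxd18t the count was 2 with at least 500 genes per cell, without doublet removal, at resolution 2, with complement genes allowed in clustering, with each library clustered separately, with mixed clusters kept and with CPM averaged over cells, and 3 with cells thinned to 1000 UMIs; the cause was not tested. C3, Cfb and C5ar1 kept their direction and stayed past 1.5-fold against MRX in all 14 alternatives. Median-of-ratios scaling moved the libraries by -0.22 (combod18t) to 0.14 (CTX) on the log2 scale. Leaving out cells with a shared barcode and leaving out the dendritic-like subclusters that scored as monocyte-macrophage were chosen after seeing the data. Precision is lowest in combod18t, with 221 cells in the class.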

Other observations

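The mixed clusters, left out of the classes, had 868 CPM (MRX), 1338 (CTX), 1036 (Combined), 1726 (ctxd18t) and 1736 (combod18t) of C1qa, above the level of the whole monocyte-macrophage-like class in CTX, Combined and ctxd18t and below it in MRX and combod18t. The larger of them, with 842 cells, had Cd3e transcripts in 89.7% of its cells and 2.33 times the median depth of its libraries. The smaller one, with 306 cells, had Siglech transcripts in 99.7% of its cells and 2.67 times that depth. An unnamed cluster of 248 cells, led by Col3a1 and Dcn at 0.16 times the depth of its libraries, had C1qa at 350 CPM in ctxd18t to 4132 CPM in combod18t and C3 at 746 CPM in CTX and 848 CPM in Combined. Serping1, the C1 inhibitor gene, was at 1537 CPM in CTX and 705 CPM in ctxd18t in this cluster and had 0 counts in its 53 cells of combod18t, the library with the highest C1qa there; C4b and C1s1 also had 0 counts in those cells.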
